A study of Homo sapiens with 10 samples.

Results

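The integrated stress response and the unfolded protein response share a small set of regulators, and 10 of them were followed here through silvestrol treatment of a leukaemia line: ATF4, ATF5, DDIT3, PPP1R15A, PPP1R15B, TRIB3, ASNS, XBP1, ATF6 and ERN1. The genes were chosen by name from the 55889 gene IDs of the deposited tables, by a rule that uses no measured value but with earlier results of these data known. All 10 were found, and all 10 were among the 10297 genes with enough signal to test. The cells were KOPT-K1, an established human line of T-cell acute lymphoblastic leukaemia. They received silvestrol at 25 nM for 45 minutes or the solvent DMSO alone. Silvestrol blocks eIF4A, the RNA helicase that opens 5′ untranslated regions (5′ UTRs) for the scanning ribosome. The silvestrol group had 2 libraries of ribosome-protected fragments (footprints) and 3 libraries of total RNA, and so did the DMSO group, 10 libraries in all. Whether replicates were separate cultures is not stated in the labels, and the spread that the p-values rest on may be technical.

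When eIF2 is phosphorylated by one of its kinases, initiation falls on most mRNAs, while ATF4 mRNA and a few others are translated more, because ribosomes that have passed a short upstream open reading frame (uORF) skip an inhibitory one. ATF4 then drives genes of amino acid supply and stress, among them ASNS, TRIB3, DDIT3 and PPP1R15A. In the endoplasmic reticulum (ER), unfolded protein activates the eIF2 kinase PERK, the sensor ATF6, which is cut to release a transcription factor, and IRE1, which is encoded by ERN1 and splices XBP1 mRNA in the cytoplasm. Each of these mRNAs has a 5′ UTR through which ribosomes must pass, and silvestrol acts on that passage.

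The upstream AUGs of the regulators are shown first, since they are the feature by which this family is known for its translation. GENCODE release 29 (GRCh38) supplied 1 transcript per gene, and bases were read from that genome. ATF4, ATF5, DDIT3, PPP1R15A, PPP1R15B and TRIB3 had upstream AUGs in the transcript used, and ASNS, XBP1, ATF6 and ERN1 had none. Among the 8794 tested protein-coding genes with a 5′ UTR, 48.95% had an upstream AUG and 16.01% had a uORF that runs past the main AUG. In ATF4, ATF5 and DDIT3 the last uORF did so. The uORFs of 3 codons in ATF4 and ATF5 are shown whole, with the start and the stop codon in capitals. The first uORFs of PPP1R15B and TRIB3 are shown in the same way as longer examples that end before the main AUG.
ATF4 uORF 2, plus strand, chr22:39520648-39520659: ATGgcgtatTAG
ATF5 uORF 1, plus strand, chr19:49929274-49929285: ATGgctctgTAG
PPP1R15B uORF 1, minus strand, chr1:204411664-204411690: ATGgtgttgaagcgtcgagccgacTAG
TRIB3 uORF 1, plus strand, chr20:380745-380771: ATGtctgcactgaccagacgccccTAG

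The overlapping uORFs begin near the main AUG, and their starts are shown because ribosomes that use them leave the main reading frame. Capitals mark the AUG, written ATG, with 6 bases before it and 4 after; the coordinates are those of the ATG.
ATF4 uORF 3, plus strand, chr22:39520747-39520749: taagccATGgcgc
ATF4 main AUG, plus strand, chr22:39521446-39521448: cgcaacATGaccg
ATF5 uORF 2, plus strand, chr19:49929396-49929398: gcagccATGgagt
ATF5 main AUG, plus strand, chr19:49930851-49930853: acagccATGtcac
DDIT3 uORF 3, minus strand, chr12:57517436-57517438: aagcagATGtgct
DDIT3 main AUG, minus strand, chr12:57517404-57517406: gcagagATGgcag

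Positions and counts are given for the transcript used of each gene. In the spliced ATF4 transcript the first AUG lies 258 nt before the main AUG and is followed at once by a stop codon. The second begins 196 nt before the main AUG and has 3 codons, and the last begins at 97 nt, has 59 codons and ends 83 nt inside the main reading frame. ATF5 has the same layout with 1 uORF fewer: 3 codons from 246 nt, then 59 codons from 124 nt that end 56 nt inside the main frame. DDIT3, which encodes the pro-apoptotic factor CHOP, has a pair of AUGs in 1 frame at 143 and 134 nt, with 34 and 31 codons to their shared stop, and a last AUG at 32 nt that opens 73 codons and ends 190 nt inside the main frame. The remaining uORFs stop before the main AUG. PPP1R15A, the stress-induced phosphatase subunit GADD34, has uORFs of 22 and 26 codons. PPP1R15B, the constitutive subunit CReP, has uORFs of 8 and 51 codons, and TRIB3, a pseudokinase that inhibits ATF4 and CHOP, has 3 uORFs of 8, 77 and 14 codons.

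**Figure D1:**
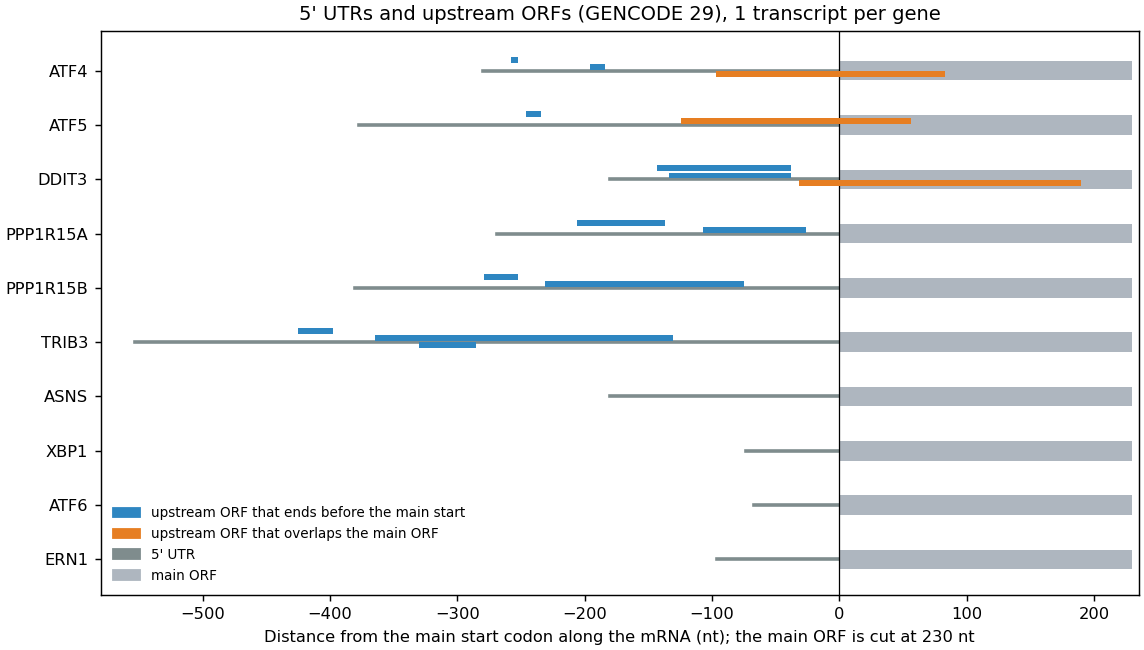
5′ UTRs (thin lines) and upstream ORFs (thin bars, orange where they overlap the main reading frame) of the 10 regulators, 1 transcript and row per gene, drawn to scale (x axis, nt from the main AUG; the main frame, a thick bar, is cut at the right edge). In ATF4, ATF5 and DDIT3 the last uORF crosses the main AUG and ends 83, 56 and 190 nt inside the main frame.

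The 5′ UTRs measured 280 nt in ATF4, 377 nt in ATF5, 180 nt in DDIT3, 269 nt in PPP1R15A, 380 nt in PPP1R15B and 553 nt in TRIB3, against a median of 169 nt over the 8794 genes. Those of the 4 regulators without an upstream AUG measured 180 nt in ASNS, 73 nt in XBP1, 67 nt in ATF6 and 96 nt in ERN1. GC content ran between 47.8% in DDIT3 and 78.1% in XBP1 and ERN1, and the median over all was 66.3%. The triplet GGC or CGG 4 times in a row, read on the mRNA strand, was in 0 of the 10 5′ UTRs and in 4.62% of all. A predicted G-quadruplex, 4 runs of at least 2 G with 1 to 7 bases between them on the same strand, was in 3 of the 10 (ATF4, TRIB3 and XBP1) and in 65.6% of all. These are matches of letters in annotated transcripts, and which transcripts KOPT-K1 cells use was not measured. The choice of transcript decides whether ASNS, XBP1 and ERN1 have an upstream AUG. Such an AUG was present in 2 of 7, 1 of 5 and 1 of 2 of their annotated coding transcripts. Counts and lengths in other regulators also depend on this choice. ATF4 transcripts had 3, 7 or 6 upstream AUGs and 5′ UTRs of 280, 882 or 773 nt. Those of ATF5 had 2, 6 or 2 upstream AUGs and 377, 582 or 303 nt. In DDIT3 the counts ran between 2 and 5 and the lengths between 141 and 372 nt. TRIB3 transcripts had 3 or 2 upstream AUGs and 553 or 317 nt.

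XBP1 has a further regulated element. IRE1 removes 26 bases from its coding sequence, which shifts the frame so that the active factor is made. They are printed in capitals with 2 flanking bases on each side in lower case, and the coordinates are those of the capitals.
XBP1 intron, minus strand, chr22:28796124-28796149: agCACTCAGACTACGTGCACCTCTGCAGca
In the annotation, the transcripts that keep these bases encode 211, 261 or 266 residues, and those that lack them encode 376. The deposited values are 1 number per gene, so the forms cannot be told apart in them, nor can footprints on a uORF be told apart from footprints on the main frame.

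The deposited unit is RPKM, in which reads are divided by gene length and by the reads of the library. Estimated depth was 2.04 to 2.38 M reads for silvestrol and 1.66 to 2.27 M for DMSO footprints. For RNA the rough estimates were 126.6 to 178.1 M for silvestrol and 160.5 to 216.7 M for DMSO. All 9 T-lineage markers had a mean of at least 1 RPKM in RNA, with summed RNA of 1406 to 1467 RPKM in silvestrol and 1426 to 1471 RPKM in DMSO libraries. All 12 matched markers of B, myeloid, erythroid and stromal cells stayed under 1 RPKM. Footprints were the noisier assay: across genes, replicates had a median SD (log2) of 0.19 in silvestrol and 0.18 in DMSO footprints, and of 0.05 and 0.04 in RNA. RNA values therefore carry the tighter statements below.

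ATF4 mRNA was the most abundant of the 10 by a wide margin. It measured 302, 318 and 318 RPKM in the silvestrol RNA libraries, against 307, 312 and 302 RPKM in the DMSO RNA libraries, a level above that of 98.95% of tested genes in DMSO. The groups overlapped. Its DMSO RNA mean was 13.4-fold that of ATF5, the next gene, and 48.0-fold that of ERN1, the lowest. ATF5, another leucine-zipper factor under uORF control, averaged 22.8 ± 0.964 RPKM in silvestrol and 23.0 ± 0.611 RPKM in DMSO RNA (SD, n = 3 each, as for all RNA means). PPP1R15B stood beside it, with 23.8 ± 0.322 RPKM in silvestrol and 22.7 ± 0.322 RPKM in DMSO. The ranges of these 2 genes overlapped in both groups.

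The other regulators lay lower and close together. In DMSO RNA the order went on with PPP1R15A and TRIB3, whose ranges overlapped, then DDIT3 and ATF6, whose ranges overlapped, then XBP1, ASNS and ERN1, each clear of its neighbours. PPP1R15A averaged 14.8 ± 0.964 RPKM in silvestrol and 14.5 ± 1.19 RPKM in DMSO, and TRIB3 13.6 ± 0.513 and 13.0 ± 0.4 RPKM. DDIT3 averaged 10.7 ± 0.611 RPKM in silvestrol and 10.9 ± 0.208 RPKM in DMSO, and ATF6 10.3 ± 0.361 and 10.4 ± 0.416 RPKM. XBP1 averaged 7.63 ± 0.0862 RPKM in silvestrol and 7.87 ± 0.164 RPKM in DMSO. ASNS, the asparagine synthetase, averaged 6.90 ± 0.165 and 7.04 ± 0.104 RPKM, and ERN1 6.45 ± 0.176 and 6.39 ± 0.415 RPKM. The lowest of them, ERN1, still lay above 33.67% of tested genes in DMSO RNA.

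**Figure D2:**
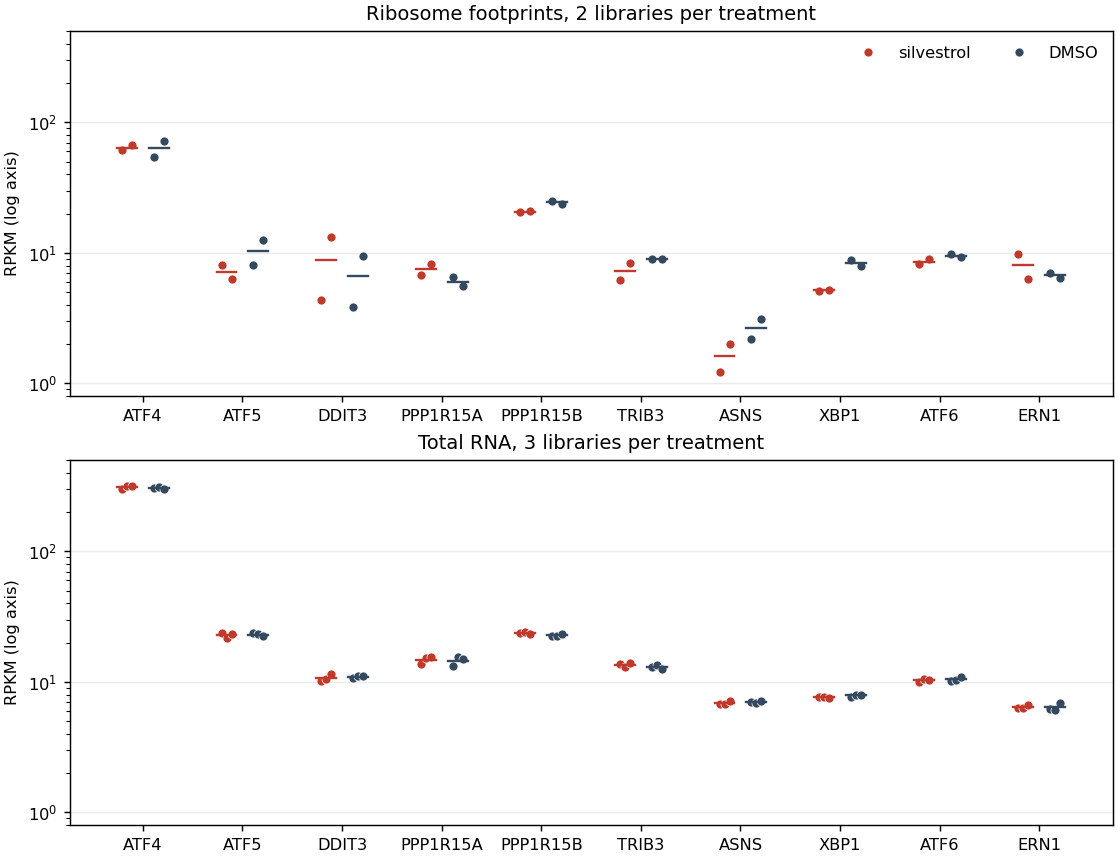
RPKM of the 10 regulators in every library (log axis), footprints and total RNA in separate panels, silvestrol left of DMSO for each gene; points are libraries and short lines are group means. ATF4 stands highest in both assays, with 302 to 318 RPKM in the silvestrol and 302 to 312 RPKM in the DMSO RNA libraries, and its lead is smaller in footprints.

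In footprints the distances between the genes shrank at the top. ATF4 had 61.6 and 66.6 RPKM in the silvestrol footprint libraries, against 54.6 and 71.8 RPKM in the DMSO footprint libraries, from an estimated 299.8 to 368.1 reads a library. The silvestrol values lay inside the DMSO range. ATF4 footprints in DMSO were 2.58-fold those of PPP1R15B, the next gene, and 23.9-fold those of ASNS, the lowest. PPP1R15B had 20.5 and 20.8 RPKM in silvestrol, against 25.2 and 23.8 RPKM in DMSO footprints. The 6 genes after PPP1R15B in silvestrol footprints (DDIT3, ATF6, ERN1, PPP1R15A, TRIB3 and ATF5) overlapped each with the next, so their order is not fixed by 2 libraries.

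Set against its RNA, ATF4 had low footprint RPKM in both treatments. Translational efficiency is given as the log2 footprint value minus the log2 RNA value of the same group, on log2(RPKM + 0.5) values, and only differences between genes or groups can be read from it. ATF4 had an efficiency of -2.28 in silvestrol and -2.28 in DMSO (SE 0.14 for each), and its footprint RPKM was 20.5% and 20.6% of its RNA RPKM. Of the tested genes, 4.31% had a value at or below this in silvestrol and 3.7% in DMSO. How multi-mapping reads were handled is not given, and the part of reads shared with ATF4 pseudogenes in these values was not tested. The median over the 10297 genes was -0.51 in silvestrol and -0.42 in DMSO. In silvestrol ASNS came next with -1.83 (SE 0.21) in silvestrol and -1.28 in DMSO, then ATF5 with -1.61 (SE 0.20) in silvestrol and -1.16 in DMSO. PPP1R15A had -0.94 in silvestrol and -1.21 in DMSO, TRIB3 -0.88 and -0.51, and DDIT3 -0.47 and -0.80.

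In DMSO the upper end was held by the constitutive phosphatase subunit, XBP1 and the ER sensors. PPP1R15B had an efficiency of -0.20 in silvestrol and 0.11 in DMSO, above 66.38% and 76.31% of tested genes. XBP1 had -0.52 in silvestrol and 0.08 in DMSO, ATF6 -0.25 and -0.13, and ERN1 0.26 and 0.07. Among the 6 genes with an upstream AUG the efficiencies in DMSO thus ran between -2.28 in ATF4 and 0.11 in PPP1R15B, and ASNS at -1.28 had no upstream AUG in the transcript used. The medians were -0.91 in silvestrol and -0.98 in DMSO for these 6 genes, and -0.39 and -0.03 for the 4 without.

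Over all tested genes, efficiency was lower with more upstream AUGs, by much less than the distance of ATF4 from the middle. The median was -0.42 in silvestrol and -0.36 in DMSO for the 4489 genes with no upstream AUG. It was -0.58 and -0.49 with 1, -0.65 and -0.55 with 2, and -0.71 and -0.55 with 3 or more. Genes with an overlapping uORF had -0.67 in silvestrol and -0.59 in DMSO (1408 genes). Of these genes with an annotated 5′ UTR, 2.75% had a lower efficiency in DMSO than ATF4. Spearman's rho across genes between the number of upstream AUGs and the efficiency in DMSO was -0.11, and that between the coding share of the exons and the efficiency was -0.01; genes are not independent replicates, and both values are descriptions. The coding share matters because RPKM counts the whole gene while ribosomes sit mainly on the coding part. It is the coding length of the transcript used over the joined exons of all annotated transcripts of the gene. This share was 41.9% in ATF4 and 29.3% in the median gene.

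**Figure D3:**
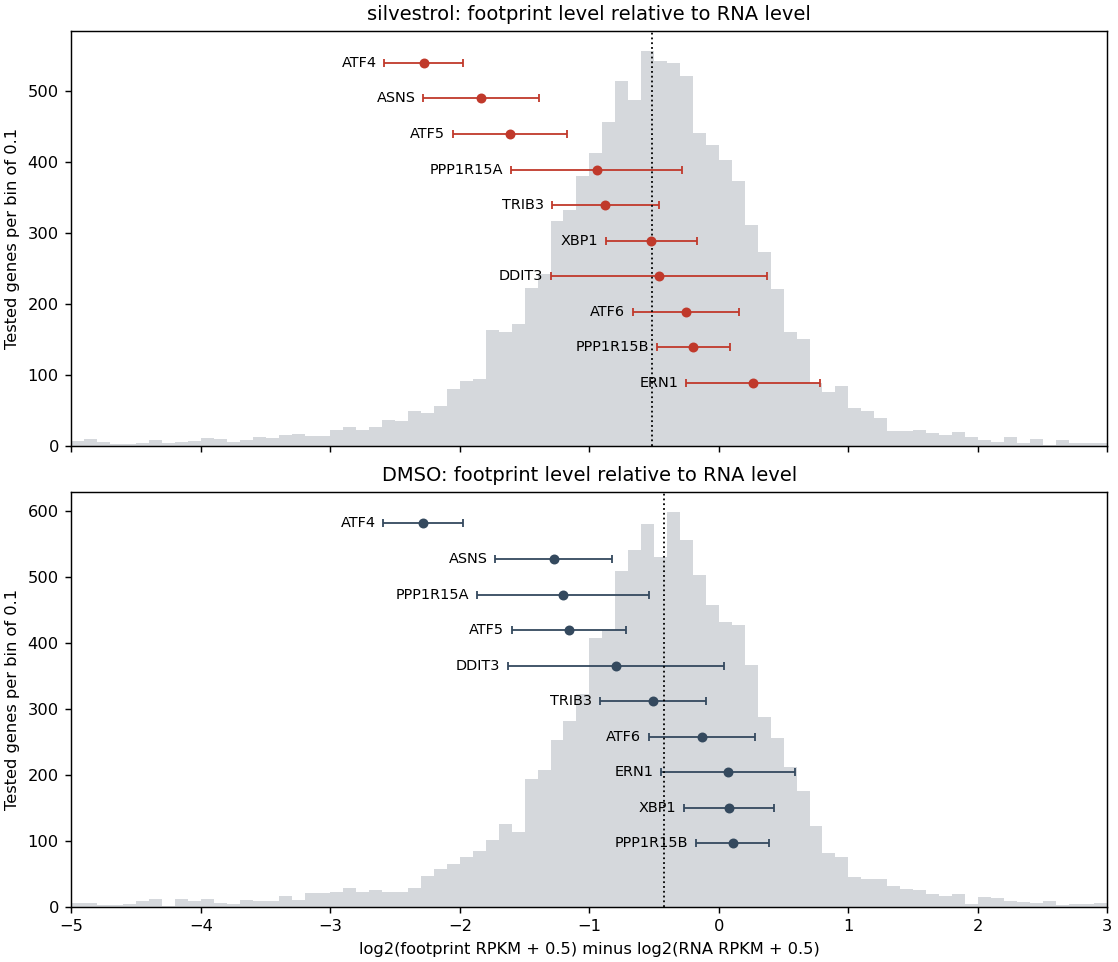
Translational efficiency (log2 footprint minus log2 RNA) of the 10 regulators with 95% intervals, over a histogram of the tested genes (y axis, genes per bin; dotted line, their median; genes beyond the x axis are not shown), silvestrol above DMSO. ATF4 lies lowest of the 10 at -2.28 in silvestrol and -2.28 in DMSO, while the medians over all genes are -0.51 and -0.42.

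Silvestrol moved none of the 10 regulators past the threshold in any of the 3 comparisons. With limma and Benjamini-Hochberg adjustment over the 10297 genes, the number called at an adjusted p under 0.05 was 0 of 10 for translational efficiency, 0 of 10 for footprints and 0 of 10 for RNA. The background was low as well: 0.107% of all tested genes were called for efficiency, 0.0486% for footprints and 0.282% for RNA. At an unadjusted p under 0.05 there was 1 regulator for efficiency and 1 for footprints, XBP1 in both cases, and 0 for RNA, while 7.38%, 6.98% and 9.23% of all tested genes passed it, so 1 in 10 is near the background. The lowest adjusted p among the 10 was 0.56 for efficiency, 0.67 for footprints and 0.55 for RNA. When footprints and RNA were given 1 common spread, limma called XBP1 (adjusted p = 0.018) and PPP1R15B (adjusted p = 0.047) for efficiency, a fit that called 545 genes in all against 11. RPKM is relative to each library, so a loss of ribosomes shared by all mRNAs would not appear in these values, and fewer cells and less RNA per cell cannot be told apart.

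The estimates for ATF4 lay at 0 with room on either side. Its efficiency differed by 0.01 on the log2 scale (SE 0.20, 95% interval -0.43 to 0.44, adjusted p = 1.00 in limma), its footprints by 0.03 (SE 0.17, interval -0.38 to 0.44) and its RNA by 0.03 (SE 0.03, adjusted p = 0.90). Leaving out single libraries moved the efficiency change between -0.19 (without DMSO footprint library 1) and 0.20 (without DMSO footprint library 2). ATF4P1, ATF4P3 and ATF4P4, named as pseudogenes of ATF4, were at most at 0.524 RPKM in any group of RNA libraries. ATF5 had 8.01 and 6.31 RPKM in silvestrol, against 8.01 and 12.5 RPKM in DMSO footprints, so that the lower DMSO library equalled the higher silvestrol library. Its efficiency change was -0.46 (SE 0.29, interval -1.08 to 0.17, adjusted p = 0.79 in limma), and it was -0.76 without DMSO footprint library 1 and -0.15 without DMSO footprint library 2. ATF5 shares 626 nt of exon with NUP62 on the opposite strand, which had 63.3 RPKM in silvestrol and 58.9 RPKM in DMSO RNA and 30.4 and 39.2 RPKM in footprints; whether counting used the strand is not stated, and the part of NUP62 reads in the ATF5 values was not tested.

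DDIT3 was the least certain of the 10. It had 4.32 and 13.2 RPKM in silvestrol, against 3.83 and 9.51 RPKM in DMSO footprints, from an estimated 11.3 to 35.1 reads. Library 2 was 3.06-fold library 1 in silvestrol and 2.48-fold in DMSO, so the replicates differed more than the treatments. The efficiency change of 0.33 (SE 0.53, interval -0.85 to 1.51, adjusted p = 0.94 in limma) turned to -0.42 without silvestrol footprint library 2 and to -0.27 without DMSO footprint library 1, and it reached 0.93 without DMSO footprint library 2 and 1.08 without silvestrol footprint library 1. DDIT3 shares 355 nt of exon with MARS1 on the opposite strand, which had 50.7 RPKM in silvestrol and 51.2 RPKM in DMSO RNA and 27.1 and 34.7 RPKM in footprints; its part in the DDIT3 values was not tested.

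The phosphatase subunits, which return eIF2 to its active form, had changes of opposite sign, neither of them called. PPP1R15A had 6.71 and 8.25 RPKM in silvestrol, against 6.48 and 5.56 RPKM in DMSO footprints, and it was the only one of the 10 with both silvestrol footprint values above both DMSO values; 13.1% of tested genes showed this. Its efficiency change was 0.26 (SE 0.43, interval -0.67 to 1.198, adjusted p = 0.94 in limma), and it was 0.40 without silvestrol footprint library 1, 0.12 without silvestrol footprint library 2 and 0.16 without DMSO footprint library 2. PPP1R15B had both silvestrol footprint values below both DMSO values, as had 25.2% of tested genes. Its efficiency change was -0.30 (SE 0.18, interval -0.70 to 0.09, adjusted p = 0.77 in limma). Its RNA went the other way by a small step: 23.9, 24.0 and 23.4 RPKM in silvestrol, against 22.6, 22.5 and 23.1 RPKM in DMSO, with no overlap, as in 8.97% of tested genes in that direction. That RNA difference was 0.06 on the log2 scale (SE 0.03, adjusted p = 0.55 in limma).

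TRIB3 and ASNS, targets of ATF4, had lower footprint RPKM in both silvestrol libraries than in either DMSO library, as had 25.2% of tested genes. TRIB3 had 6.14 and 8.34 RPKM in silvestrol, against 8.98 and 8.98 RPKM in DMSO footprints. These came from an estimated 50.1 and 58.3 reads in silvestrol, against 69.9 and 51.2 in DMSO. ASNS had 1.23 and 1.99 RPKM in silvestrol, against 2.18 and 3.11 RPKM in DMSO, from only 13 to 23 estimated reads. The efficiency changes were -0.37 for TRIB3 (SE 0.27, interval -0.95 to 0.22, adjusted p = 0.83 in limma) and -0.56 for ASNS (SE 0.29, interval -1.19 to 0.08, adjusted p = 0.72 in limma). Without silvestrol footprint library 1 the changes were -0.16 for TRIB3 and -0.29 for ASNS, and without silvestrol footprint library 2 they were -0.57 and -0.82. Without DMSO footprint library 2 the change of ASNS was -0.34. Their RNA changes were 0.06 and -0.03.

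XBP1 was the regulator whose footprint and efficiency intervals did not reach 0. It had 5.14 and 5.19 RPKM in silvestrol, against 8.74 and 7.95 RPKM in DMSO footprints, from an estimated 37 and 32 reads against 60 and 40. Both silvestrol values lay below both DMSO values, as in 25.2% of tested genes. The silvestrol mean was 0.619 of the DMSO mean, close to the 0.609 of ASNS. The efficiency change of ASNS was the more negative with a pseudocount of 0.1 (-0.67 for ASNS, -0.64 for XBP1) and with voom (-0.68 and -0.65). XBP1 RNA had 7.65, 7.71 and 7.54 RPKM in silvestrol, against 7.68, 7.93 and 7.99 RPKM in DMSO, and these groups overlapped. The efficiency change of XBP1 was -0.60 (SE 0.23, interval -1.10 to -0.11, unadjusted p = 0.021, adjusted p = 0.56 in limma), with 8.56% of tested genes at or below it, and the footprint change was -0.64 (SE 0.21, adjusted p = 0.67 in limma). The efficiency change stayed between -0.67 and -0.52 under 20 other settings of the efficiency fit. Among these, changed filters, a plain eBayes, 1 common spread and a replicate block cannot move the estimate, which was -0.60 in each. The pseudogene XBP1P1 was listed at 0.184 RPKM in silvestrol and 0.183 RPKM in DMSO RNA.

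The sensors themselves differed less. ATF6 had 8.21 and 8.91 RPKM in silvestrol, against 9.73 and 9.23 RPKM in DMSO footprints. Both silvestrol values lay below both DMSO values, as in 25.2% of tested genes. The efficiency change of ATF6 was -0.12 (SE 0.27, adjusted p = 0.96 in limma), and it was -0.07 without silvestrol footprint library 1. ERN1 had 9.79 and 6.25 RPKM in silvestrol, against 6.99 and 6.47 RPKM in DMSO footprints, so that 1 silvestrol library lay above and 1 below the DMSO pair. Its change of 0.19 (SE 0.34, adjusted p = 0.95 in limma) became -0.11 without silvestrol footprint library 1 and 0.50 without silvestrol footprint library 2.

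**Figure D4:**
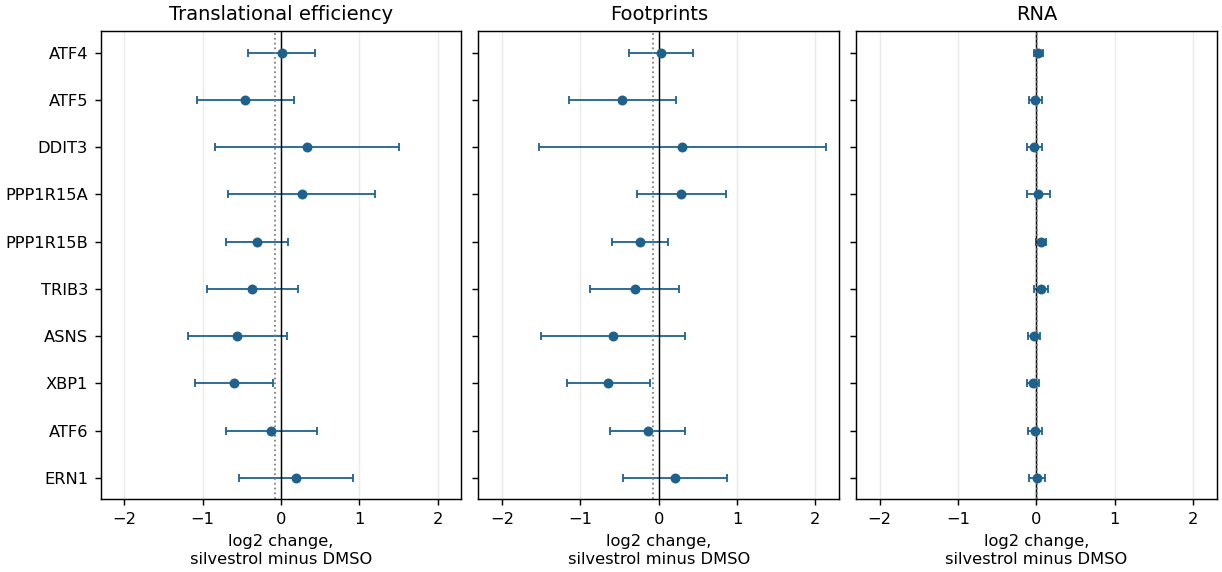
Silvestrol minus DMSO differences on the log2 scale with 95% intervals for translational efficiency, footprints and RNA of the 10 regulators (1 panel each; dotted line, median over the tested genes). The XBP1 intervals for efficiency (-1.10 to -0.11) and footprints lie below 0, and all other intervals in the 3 panels include 0.

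As a group, the regulators leaned the way most genes did. Efficiency changes were below 0 in 6 of the 10, with a median of -0.21, and in 59.91% of all tested genes, with a median of -0.08. Footprint changes were below 0 in 6 of the 10 as well, with a median of -0.19, against 59.51% and -0.07 over all genes. In 5 of the 10 both silvestrol footprint values lay below both DMSO values (PPP1R15B, TRIB3, ASNS, XBP1 and ATF6), against 25.2% of tested genes. This share and the medians were lower or larger than over all genes, and whether 10 genes differ from the rest was not tested. RNA changes were below 0 in 5 of the 10, with a median of 0.00, and in 47.52% of all genes. The 95% intervals reached 0.40 to 1.18 to each side of the estimate for efficiency and 0.06 to 0.15 for RNA.

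The genes around the 10 were described through 4 lists. The first list held the eIF2 kinases, the subunits of eIF2 and its exchange factor eIF2B, and also GCN1, IMPACT, EIF2A and EIF2D. Of these 16 genes, 15 were tested (all but IMPACT) and 0 were called in any comparison with limma. The median efficiency change of the list was -0.10. The 4 kinases all had negative estimates: -0.33 for EIF2AK1 (HRI, the haem-regulated kinase), -0.21 for EIF2AK2 (PKR, which senses double-stranded RNA), -0.15 for EIF2AK3 (PERK) and -0.10 for EIF2AK4 (GCN2, which senses uncharged tRNA). Their SEs were 0.19, 0.23, 0.29 and 0.38 in this order, and 59.91% of all tested genes had a negative estimate. The lowest adjusted p of the 4 kinases was 0.74 in limma. EIF2AK1 was the most abundant kinase, with footprints of 21.8 RPKM in silvestrol and 27.2 RPKM in DMSO and RNA of 62.5 and 61.8 RPKM. EIF2AK3 was the least abundant, with footprints of 3.00 RPKM in silvestrol and 3.58 RPKM in DMSO and RNA of 5.23 and 5.56 RPKM.

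Of 30 further targets of ATF4 and CHOP, 22 were tested, with 0 called and a median efficiency change of -0.13. Their changes ran between -0.70 in CEBPB and 1.40 in CHAC1, the glutathione-degrading enzyme, which had 1.92 and 2.26 RPKM in silvestrol, against 0 and 1.51 RPKM in DMSO footprints (adjusted p = 0.66 in limma; both genes named after their values were seen). Of 34 ER stress partners and targets of XBP1 and ATF6, 32 were tested, with 0 called and a median of -0.07. HSPA5, the ER chaperone BiP, named here after its values were seen, had footprints of 28.2 RPKM in silvestrol and 30.7 RPKM in DMSO and RNA of 39.4 and 40.9 RPKM. Of 12 other mRNAs known for uORFs, 10 were tested, with 0 called and a median of -0.08. The median RNA changes of the 4 lists lay between -0.03 and 0.02. At an unadjusted p under 0.05, the 4 lists, in this order, held 1, 1, 1 and 2 genes for efficiency, 0, 0, 1 and 2 for footprints and 0, 3, 0 and 1 for RNA, of 15, 22, 32 and 10 tested. CEBPB stood in both the list of ATF4 and CHOP targets and the uORF list, and its RNA result is counted in both. The shares of all tested genes at this threshold were 7.38%, 6.98% and 9.23%.

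**Figure D5:**
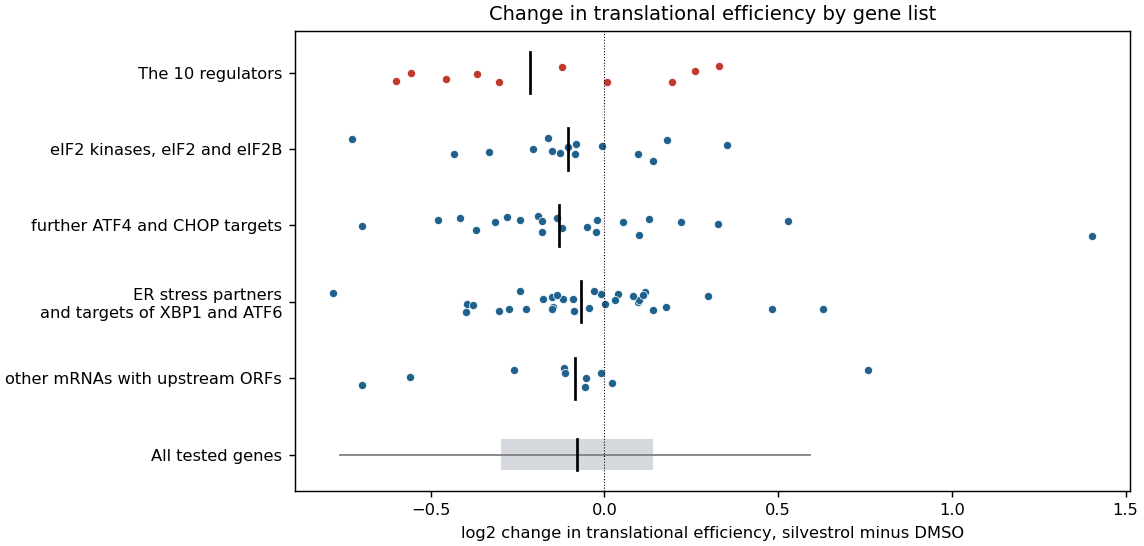
Change of translational efficiency (silvestrol minus DMSO, log2) of each tested gene in the 4 lists and of the 10 regulators, with medians as black lines (bottom row: all tested genes, box for the quartiles and line for the 5th to 95th percentile). The list medians lie between -0.13 and -0.07, near the -0.08 of all genes.

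The tested genes whose values over the 10 libraries ran closest to ATF4 were IPO9, B3GLCT, TM2D3, PPP5C and ENSG00000256349, by Euclidean distance of log2 values centred within each assay. The distances were 0.10, 0.10, 0.11, 0.12 and 0.12, against a median of 0.58 over all genes.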

How the data were processed

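Per the labels' protocols, footprints and total RNA of KOPT-K1 cells were sequenced after silvestrol or DMSO. The authors deposited RPKM values per Ensembl gene and library, per the file headers. The submitters' processing notes name STAR and hg19, with no role. Counting tool, gene lengths, strand use and the handling of multi-mapping reads were not given in the sources used here. Depth was estimated from the step between low RPKM values and GENCODE 29 exon lengths, so reads are called estimated reads; 90.29% to 92.94% of low values lay within 0.05 of a whole read. Groups and replicate numbers came from the sample titles.

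Tests used log2(RPKM + 0.5), where the change of a low gene comes out too small, and the 10297 genes averaging at least 1 RPKM in both assays. R 4.3.3 with limma 3.58.1 (eBayes with trend and robust, Benjamini-Hochberg, two-sided, adjusted p under 0.05) fitted efficiency as the interaction of assay and treatment over 10 libraries with weights per assay, footprints over 4 libraries and RNA over 6. The scripts were tested on simulated data. Alternatives were pseudocounts, filters, scaling, a plain eBayes, 1 common spread, voom on estimated reads, a replicate block and leaving out each library.

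Transcripts came from GENCODE 29 (GRCh38), best APPRIS tag, then support level, then shortest 5′ UTR, a rule set after the sequences were seen. No coordinate of the deposited build was used. The text names all 10 regulators, the 4 eIF2 kinases, list genes called in a comparison, and the 5 genes nearest to ATF4; HSPA5 and genes in the closing section were picked after their values were seen. The members and lists were chosen with earlier results of these data known.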

Additional observations from a re-analysis of the deposited data

How the results depend on the processing

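Of the settings tried for the 10 regulators, 190 of 199 efficiency values, 114 of 119 footprint values and 127 of 139 RNA values kept their direction and their side of the threshold. These counts include changed filters, a plain eBayes, 1 common spread and a replicate block. Such settings leave each estimate as it is, so they cannot turn a sign and can only change the side of the threshold. Exceptions past the threshold were XBP1 and PPP1R15B for efficiency with 1 common spread (adjusted p = 0.018 and 0.047). Leaving out each library turned the sign for some: efficiency ran between -0.19 and 0.20 for ATF4, -0.42 and 1.08 for DDIT3 and -0.11 and 0.50 for ERN1. Footprint changes ran between -0.16 and 0.23 for ATF4, -0.45 and 1.06 for DDIT3 and -0.10 and 0.51 for ERN1. RNA changes ran between -0.0169 and 0.0616 for ERN1, -0.0326 and 0.0237 for ATF5, -0.0389 and 0.0794 for PPP1R15A, -0.0395 and 0.0129 for ATF6 and -0.069 and 0.0077 for DDIT3; for ERN1 RNA, median scaling gave -6e-04 and quantile normalization -0.0026. ASNS had no value under the filter at 5 RPKM.

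Over all genes, 11 were called for efficiency, against 271 with no filter, 6 with a plain eBayes, 545 with 1 common spread and 8 to 44 without single libraries (21 without DMSO footprint library 1, 31 without silvestrol footprint library 2 and 44 without silvestrol footprint library 1). Quantile normalization gave 9 lower and 4 higher, main 9 and 2. Footprint calls numbered 5, against 2 with a pseudocount of 0.1, 0 with no filter, 2 with the filter at 5 RPKM, 8 with quantile normalization (3 lower and 5 higher, main 3 and 2), 1 with a plain eBayes and 0 without any 1 of the 4 footprint libraries. RNA calls numbered 29, against 0 with no filter, 4 with a plain eBayes and 0 to 35 without single libraries (0 without DMSO RNA library 1 or 3, 1 without silvestrol RNA library 3 and 5 without DMSO RNA library 2). The cause was not tested. With the replicate number as a block, calls numbered 13 for efficiency, 1 for footprints and 57 for RNA, and no regulator was called. Across genes, the deviations of same-numbered silvestrol and DMSO libraries from their group means correlated at r = -0.03 in footprints, and 0.04, -0.33 and 0.15 in RNA. With 2 or 3 libraries a group, these values cannot decide whether the numbers pair the samples. Footprint libraries held 1.66 to 2.38 M estimated reads, and ASNS, DDIT3 and XBP1 had few of them.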

Other observations

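A few genes around the regulators are given here, picked after their values were seen for an unadjusted p under 0.05 in efficiency, a threshold that 7.38% of tested genes passed. SLC35A4, whose mRNA is known for a uORF that resists eIF2 phosphorylation, had 6.69 and 7.57 RPKM in silvestrol, against 3.73 and 4.19 RPKM in DMSO footprints, and RNA of 32.3 and 32.0 RPKM. Both silvestrol footprint values lay above both DMSO values, as in 13.1% of tested genes. The efficiency change of SLC35A4 was 0.76 (SE 0.20, adjusted p = 0.30 in limma). ODC1, ornithine decarboxylase of polyamine synthesis, had footprints of 70.5 ± 9.26 RPKM in silvestrol and 105.6 ± 13.4 RPKM in DMSO (SD, n = 2 each), and RNA of 229 and 232 RPKM. Its efficiency change was -0.56 (SE 0.19, adjusted p = 0.49 in limma). EIF2S2, the beta subunit of eIF2, had footprints of 2.04 and 2.85 RPKM in silvestrol, against 3.63 and 5.15 RPKM in DMSO, beside RNA of 82.6 RPKM in each group, and a change of -0.73 (SE 0.28, adjusted p = 0.58 in limma). SELENOS, a selenoprotein of ER-associated degradation, had footprints of 8.61 and 11.4 RPKM in silvestrol, against 5.75 and 7.15 RPKM in DMSO, and a change of 0.63 (SE 0.26, adjusted p = 0.61 in limma). None of these passed the threshold.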
